A study of Homo sapiens with 3 samples.

Results

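Expression of 10 cellular iron handling genes was followed in MV-4-11, a human leukaemia cell line, after exposure to the drug conjugate FL-Fc-DM1. The members are the ferritin chain genes FTH1 and FTL, the uptake genes TFRC and SLC11A2, the export gene SLC40A1, the ferritin cargo receptor gene NCOA4, the iron sensor genes IREB2 and ACO1, the haem sensor gene BACH1 and the peroxidase gene GPX4. They were taken by gene symbol, and all 10 were found among the 20332 genes of the deposited table. Of these 10, 9 had an average of at least 1 CPM (count per 1000000) across libraries and are among the 11322 genes analysed. SLC40A1 did not reach that minimum. The 10 genes were chosen by their role in iron handling with the log2 ratios of HMOX1 and FTH1 in these libraries already known, so their values are given as a description.

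MV-4-11 grows on a mutant, constantly active FLT3 receptor. FL-Fc-DM1 couples the ligand of that receptor, extended by an antibody Fc portion, to DM1, a maytansinoid that poisons tubulin. There were 3 groups of cells grown in IMDM with FBS, each with 1 poly(A) RNA library: untreated cells cultured for 1 day, cells given 0.5 nM FL-Fc-DM1 for 1 day, and cells given 1.5 nM for 1 day. The cells of all 3 groups carry the label wild type, no vehicle or unconjugated drug group is among them, and all come from a single cell line. The table's columns bear the numbers 0, 1 and 2, which were read as untreated, 0.5 nM and 1.5 nM; were the numbers 1 and 2 reversed, the doses named here would swap.

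Iron enters most cells bound to transferrin, through the transferrin receptor encoded by TFRC, and leaves the endosome through the divalent metal transporter encoded by SLC11A2. What is not used is stored inside ferritin, a shell of heavy (FTH1) and light (FTL) chains, or leaves through ferroportin, the exporter encoded by SLC40A1. The iron regulatory proteins encoded by ACO1 and IREB2 bind stem-loops called iron-responsive elements when iron is scarce. Bound at the 5' end of a ferritin transcript they block its translation, and bound at the 3' end of the TFRC transcript they protect it from decay. Haem oxygenase, encoded by HMOX1, frees iron from haem, and the repressor encoded by BACH1 holds HMOX1 and the ferritin genes down until haem binds it. Myeloid cells are major handlers of recycled iron.

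The iron-responsive elements are shown because they are the sequence that joins the storage, export and uptake genes of the set. Protein-coding transcripts of GENCODE release 29 (GRCh38) were searched on the transcript strand for a run of 17 bases: a C, an arm of 5 bases, the loop CAGTGN and a second arm of 5 bases. The arms had to pair along their whole length, with at most 1 G-U pair. Of 19478 genes in the table with such a transcript, 161 (0.827%) held a match, and 4 of the 10 members did. Each line gives the gene, its place and 30 bases of the transcript in DNA letters, 5′ to 3′, with the 6-base loop in capitals.
FTH1, 5' UTR, chr11:61967580-61967596, minus strand: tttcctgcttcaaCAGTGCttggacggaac
FTL, 5' UTR, chr19:48965341-48965357, plus strand: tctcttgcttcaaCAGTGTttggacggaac
SLC40A1, 5' UTR, chr2:189580667-189580683, minus strand: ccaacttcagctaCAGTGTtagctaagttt
TFRC, 3' UTR, chr3:196050985-196051001, minus strand: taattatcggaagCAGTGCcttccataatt
TFRC, 3' UTR, chr3:196050581-196050597, minus strand: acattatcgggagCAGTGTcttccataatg
TFRC, 3' UTR, chr3:196050516-196050532, minus strand: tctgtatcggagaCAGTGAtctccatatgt
TFRC, 3' UTR, chr3:196050469-196050485, minus strand: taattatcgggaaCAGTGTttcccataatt

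The coordinates cover the 17 bases of the matched pattern in GRCh38; the build the authors used is not given in the sources used here. The FTH1 and FTL windows differed at 3 of 30 bases, and their pairing arms were the same at all 10 positions. The FTH1 and SLC40A1 windows differed at 17 of 30 bases. The match began 65 bases from the 5' end in FTH1, 41 bases in FTL and 205 bases in SLC40A1, each ahead of the coding sequence. The matches in TFRC began at bases 3394, 3798, 3863 and 3910 of a transcript of 5111 bases, behind a coding sequence that ends at base 2450. SLC11A2, IREB2, ACO1, NCOA4, BACH1 and GPX4 held no match to these letters. SLC11A2 is nevertheless among the genes listed below from textbook knowledge as having an iron-responsive element. The pattern therefore does not find every such element, and a gene without a match may still hold one.

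**Figure D1:**
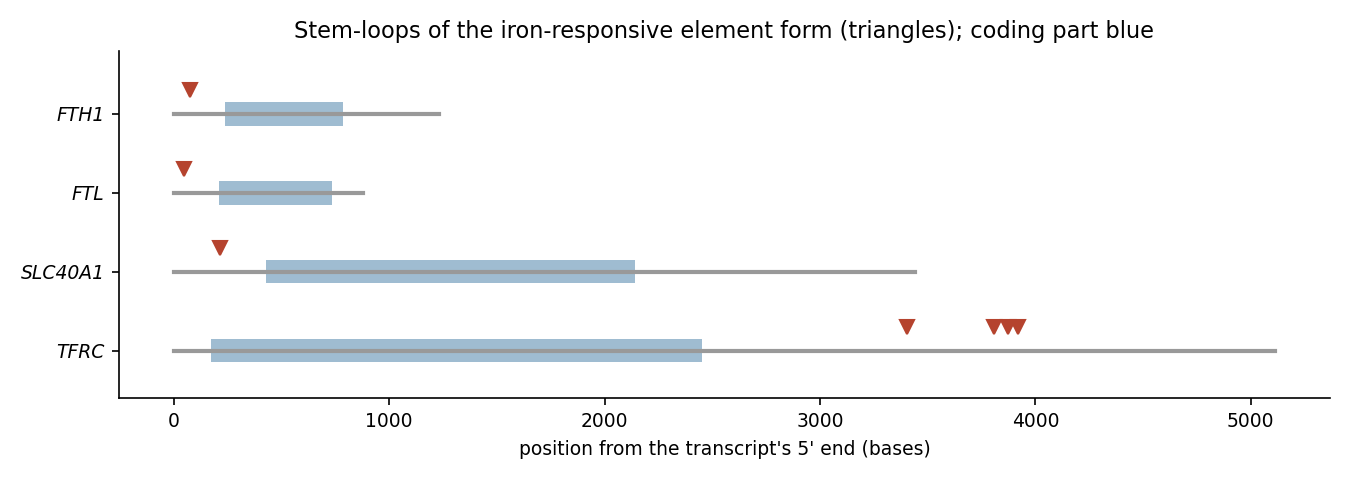
Transcript models of FTH1, FTL, SLC40A1 and TFRC, drawn to scale in bases from the 5' end (x axis), with the coding sequence in blue and matches to the iron-responsive element form as triangles. The ferritin and ferroportin transcripts hold 1 match each ahead of the coding sequence, and TFRC holds 4 behind it.

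The libraries held 22329953 estimated counts for untreated cells, 16427206 for 0.5 nM and 16864857 for 1.5 nM, and mitochondrially encoded genes took 5.07% to 5.36% of them. With 1 library per group no difference has a replicate check and no test between conditions was possible, so ratios compare these libraries. Values in brackets are exact 95% intervals (Clopper-Pearson) that cover counting error only. Of the 11 myeloid markers listed for this line, all had counts in untreated cells and at 0.5 nM, and CD34 alone was at 0 at 1.5 nM. CD34 had 1, 2 and 0 counts in order of dose, too few to compare. KIT, with 12, 19 and 22 counts, was also below the minimum of 1 CPM. Of 13 erythroid markers, 11 were at 0 in every library, among them the globin genes, GATA1 and the erythroid haem synthesis gene ALAS2. The other erythroid markers were the erythropoietin receptor gene EPOR, with 254, 194 and 118 counts and a log2 ratio of -0.72 [-1.06, -0.41] at 1.5 nM, and KLF1, with 28, 17 and 20 counts. The erythroid list summed to 12.8, 12.8 and 8.13 CPM in order of dose, and the 6 lymphoid markers to 16.4, 15.0 and 17.8 CPM. Summed epithelial markers stood at 7.81, 7.76 and 5.89 CPM in order of dose, with 3, 3 and 7 of 10 at 0. DSP and DSG2 were at 0 in the 1.5 nM library alone. Other epithelial markers had counts in every library: KRT8 had 33, 32 and 44, KRT18 had 56, 24 and 31, and CLDN7 had 28, 23 and 25. The part of these marker genes in the results below was not tested.

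FTH1, which encodes the ferritin heavy chain with the ferroxidase centre, was the member that differed most from untreated cells at both doses. FTH1 (ENSG00000167996) stood at 1867 TPM in untreated cells, 2737 TPM at 0.5 nM and 3581 TPM at 1.5 nM. TPM (transcripts per 1000000) is scaled to gene length, so it allows levels of different genes to be set side by side. Both treated libraries were above the untreated one, and the higher dose was above the lower. On the scale of CPM after TMM scaling, the log2 ratio to untreated cells was 0.52 [0.49, 0.55] at 0.5 nM and 0.93 [0.90, 0.96] at 1.5 nM. These are 1.43-fold and 1.91-fold differences. The 1.5 nM library exceeded the 0.5 nM library by a log2 ratio of 0.41 [0.38, 0.44].

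At 1.5 nM, FTH1 was the 1 member of the 9 analysed that was at least 1.5-fold higher, and no member was 1.5-fold lower. Of all 11322 genes, 4.77% were past 1.5-fold upwards and 2.23% downwards in that comparison. At 0.5 nM no member passed 1.5-fold either way, against 3.37% of all genes (2.46% higher and 0.901% lower). A larger ratio than that of FTH1 was seen for 3.13% of genes at 0.5 nM and 1.72% at 1.5 nM. By TPM, FTH1 ranked 76th of all genes in the untreated, 37th in the 0.5 nM and 23rd in the 1.5 nM library.

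FTH1 is 1 of the genes whose estimated counts were not whole numbers in every library, at 17133.9, 18416.1 and 25191.5. The human genome holds many processed copies of FTH1, and the sources used here do not say how reads that match several places were assigned, which leaves its level uncertain. The rows of the table described as ferritin, other than FTH1 and FTL, are FTHL17 and the mitochondrial ferritin gene FTMT, both at 0 in all libraries. In bulk RNA a larger share of cells with high FTH1 and more FTH1 RNA per cell cannot be told apart. The 10 monocyte and macrophage markers, a cell type rich in ferritin, summed to 100.3 CPM, 121.5 CPM and 134.5 CPM in order of dose. At 1.5 nM the integrin genes ITGAX, at 1.09 [0.68, 1.57], and ITGAM, at 0.90 [0.37, 1.50], and the lysosomal marker gene CD68, at 0.60 [0.47, 0.73], were past 1.5-fold, while CSF1R had 0.35 and FCGR1A 0.08. At 0.5 nM these genes had 0.72, 0.40, 0.37, 0.22 and 0.14. The other 5 markers had 6 or fewer counts in any library: CD163 and MRC1 were at 0 in untreated cells, VSIG4 was at 0 in both treated libraries, CD14 had 6, 1 and 3 counts, and MSR1 had 6, 6 and 1. Their part in the FTH1 difference was not tested.

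FTL, the ferritin light chain gene that promotes mineral core formation, was among the most abundant transcripts of these cells and differed little between libraries. FTL (ENSG00000087086) stood at 7486, 7731 and 8653 TPM in untreated, 0.5 nM and 1.5 nM libraries, and ranked 8th, 8th and 7th of all genes. The 0.5 nM library lay close to the untreated one and the 1.5 nM library above both. Its log2 ratio was -0.03 [-0.04, -0.01] at 0.5 nM, a sign that turned in 3 of 7 alternative settings (highest 0.05). On log2(TPM + 1) FTL had 0.05 beside a median of 0.06 over all genes, and on total counts 0.002 beside 0.03. With the GC trend removed it had 0.02 beside 0.001. At 1.5 nM the main FTL ratio was 0.17 [0.16, 0.19], a 12.7% difference, and 23.2% of all genes had a larger ratio.

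The ferritin transcript pool therefore held relatively more heavy chain at each dose. FTH1 made up 19.96% of the summed FTH1 and FTL TPM in untreated cells, 26.1% at 0.5 nM and 29.3% at 1.5 nM. The log2 ratio of FTH1 exceeded that of FTL by 0.55 [0.51, 0.58] at 0.5 nM and by 0.76 [0.73, 0.79] at 1.5 nM, with intervals from the 4 counts in each case. This difference is taken within the same libraries and does not depend on library scaling. Together the ferritin chains accounted for 0.935%, 1.05% and 1.22% of all TPM. The plot of ferritin transcripts shows the sum at 9353 TPM in untreated cells and 12234 TPM at 1.5 nM.

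**Figure D2:**
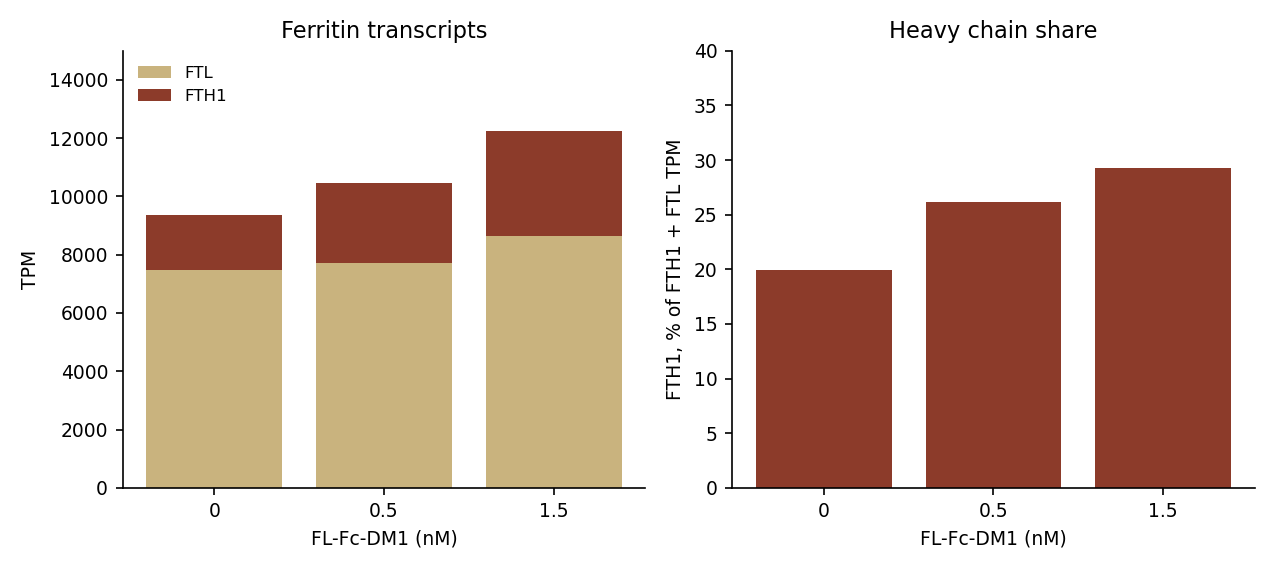
Left, TPM of FTL (tan) and FTH1 (brown) stacked for the library of each dose (x axis, nM); right, FTH1 as a percentage of both. The heavy chain share stood at 19.96%, 26.1% and 29.3%, with 1 library per bar and no error bar.

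The uptake genes stayed near their untreated level. TFRC (ENSG00000072274), the transferrin receptor gene whose transcript carries the 4 matches printed above, stood at 564.3 TPM in untreated cells, 624.2 TPM at 0.5 nM and 598.8 TPM at 1.5 nM. Its log2 ratio of CPM was 0.08 [0.05, 0.10] at 0.5 nM and 0.06 [0.03, 0.08] at 1.5 nM, about 5.51% and 4.04% above untreated cells. At 1.5 nM against 0.5 nM it was -0.02 [-0.05, 0.00]. FTH1 transcripts outnumbered TFRC transcripts 3.31 to 1 by TPM in untreated cells, 4.39 to 1 at 0.5 nM and 5.98 to 1 at 1.5 nM.

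SLC11A2 (ENSG00000110911), the gene of the divalent metal transporter, was far less abundant than TFRC. It stood at 25.05 TPM in untreated cells, 28.57 TPM at 0.5 nM and 30.02 TPM at 1.5 nM, so both treated libraries were above the untreated one. The log2 ratio of CPM was 0.08 [-0.06, 0.22] at 0.5 nM, where counting error alone spans 0, and 0.21 [0.07, 0.34] at 1.5 nM. Among all genes, 19.98% had a larger ratio at 1.5 nM.

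SLC40A1 (ENSG00000138449), the ferroportin gene, was at or near 0 in all libraries. It had 0 counts in untreated cells, 1 count at 0.5 nM and 0 counts at 1.5 nM. A count of 0 allows up to 3 counts, which is 0.136 CPM in the untreated and 0.177 CPM in the 1.5 nM library, and no ratio was formed. Of the 7 genes listed for iron export and its hormone axis, none reached the minimum of 1 CPM. The hepcidin gene HAMP was at 0 throughout, and HEPH, which encodes the ferroxidase hephaestin, had 10, 14 and 22 counts. HAMP and HEPH were named after their values were seen.

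NCOA4 (ENSG00000266412), whose product carries ferritin to the lysosome for iron release, stood at 174.1, 192.1 and 196.4 TPM in untreated, 0.5 nM and 1.5 nM libraries. Both treated libraries were slightly above the untreated one. The log2 ratio of CPM was 0.07 [0.02, 0.12] at 0.5 nM and 0.13 [0.08, 0.18] at 1.5 nM, and 28.4% of all genes had a larger ratio at 1.5 nM.

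The iron sensor genes barely differed between libraries. IREB2 (ENSG00000136381), which encodes iron regulatory protein 2, stood at 98.0 TPM in untreated cells, 113.1 TPM at 0.5 nM and 102.0 TPM at 1.5 nM. Its log2 ratio of CPM was 0.04 [-0.02, 0.09] at 0.5 nM and 0.09 [0.04, 0.15] at 1.5 nM. The value at 0.5 nM ran from -0.03 to 0.21 over the alternative settings, and IREB2 had counts that were not whole. ACO1 (ENSG00000122729), which encodes iron regulatory protein 1, the cytosolic aconitase when it holds an iron-sulfur cluster, stood at 22.7, 24.5 and 23.9 TPM. Its log2 ratio of CPM was 0.02 [-0.12, 0.16] at 0.5 nM and 0.04 [-0.10, 0.18] at 1.5 nM, and both intervals span 0. IREB2 outnumbered ACO1 4.31 to 1, 4.62 to 1 and 4.27 to 1 by TPM in order of dose. FBXL5, the iron-sensing ubiquitin ligase subunit that removes iron regulatory protein 2, had log2 ratios of 0.04 and 0.05.

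**Figure D3:**
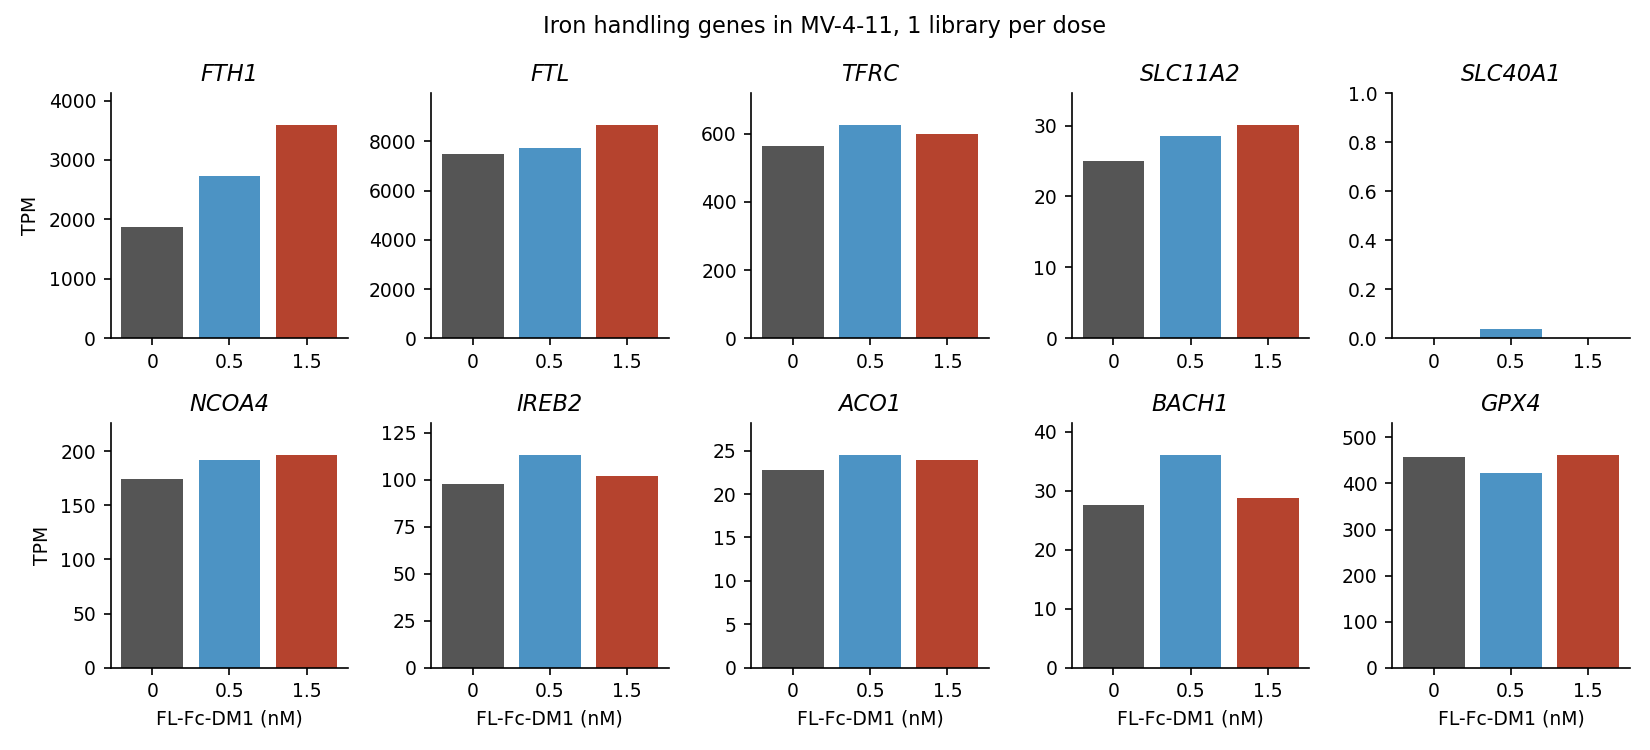
TPM of each of the 10 members (y axes, a separate scale starting at 0 in each panel) in the library of each dose (x axis, nM), with 1 library per bar and no error bar. FTH1 goes from 1867 to 3581 TPM, while TFRC, NCOA4, ACO1 and GPX4 stay near level and SLC40A1 is at or near 0.

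BACH1 (ENSG00000156273), the haem-sensing repressor gene, was higher at the lower dose. It stood at 27.6 TPM in untreated cells, 36.1 TPM at 0.5 nM and 28.8 TPM at 1.5 nM. The 0.5 nM library was above the other two, which lay close together on this scale. The log2 ratio of CPM was 0.36 [0.25, 0.47] at 0.5 nM, a 28.2% difference, and 6.19% of all genes had a larger ratio. At 1.5 nM the CPM scale gave 0.25 [0.14, 0.36] while log2(TPM + 1) gave 0.06, so the size of the BACH1 difference at 1.5 nM depends on the scale.

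GPX4 (ENSG00000167468), the selenoprotein that reduces lipid peroxides and so guards cells against iron-dependent death, was the member with the lowest ratio at both doses. It stood at 457.0 TPM in untreated cells, 421.8 TPM at 0.5 nM and 461.8 TPM at 1.5 nM. The 0.5 nM library was below the other two, which lay close together. The log2 ratio of CPM was -0.19 [-0.26, -0.12] at 0.5 nM and -0.02 [-0.09, 0.05] at 1.5 nM, with an interval that spans 0. At 0.5 nM, 13.1% of all genes had a lower ratio; with the trend on transcript GC content removed its ratio was -0.10. GPX4 transcripts have 62.5% GC against a median of 48.0% for the genes analysed.

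HMOX1, the gene of the haem-degrading enzyme, had 104, 198 and 643 counts in untreated, 0.5 nM and 1.5 nM libraries. Its log2 ratio of CPM was 1.33 [1.00, 1.70] at 0.5 nM and 2.97 [2.70, 3.32] at 1.5 nM, beside 0.52 and 0.93 for FTH1. Both comparisons share the untreated library.

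**Figure D4:**
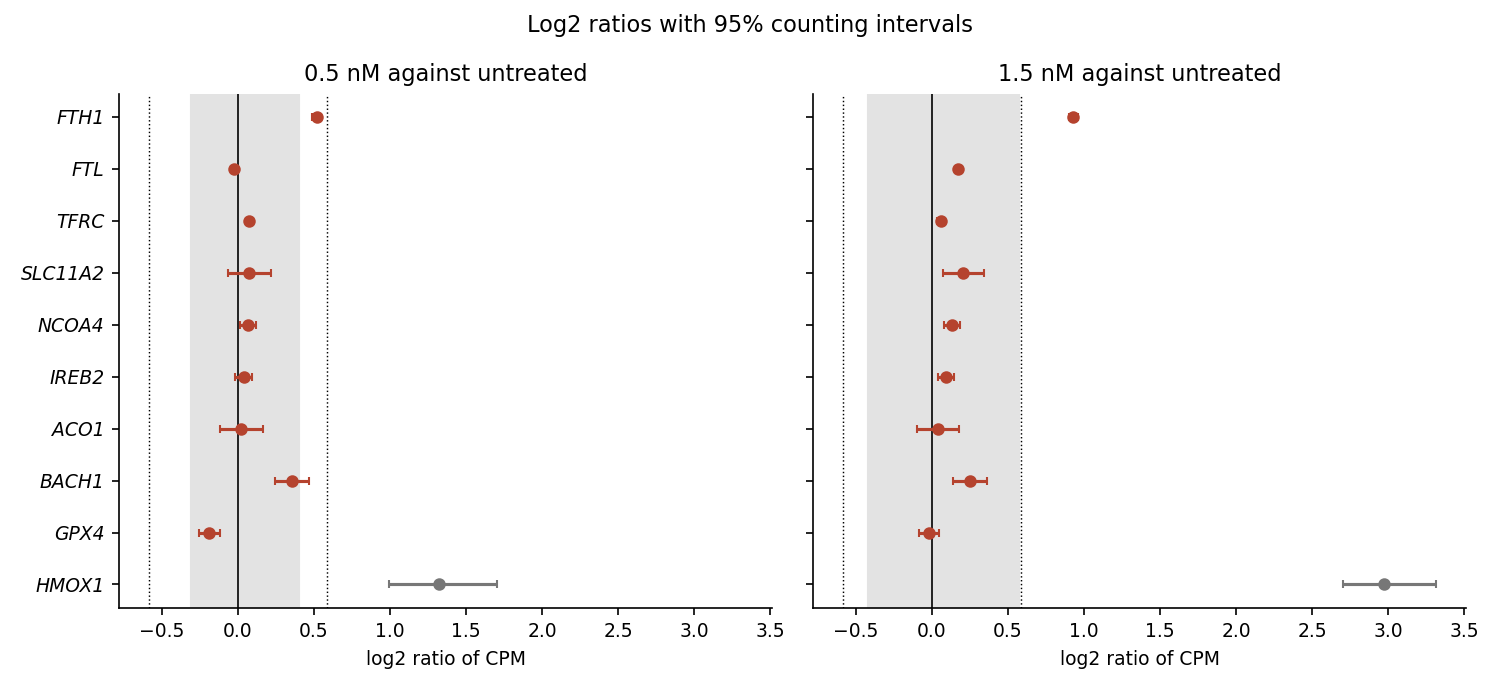
Log2 ratio of CPM (x axis) of the 9 analysed members and of HMOX1 at 0.5 nM (left) and 1.5 nM (right) against untreated cells, with bars for 95% counting intervals, a grey band for the central 90% of all 11322 genes and dotted lines at 1.5-fold. FTH1 lies outside the band at both doses and past 1.5-fold at 1.5 nM, and the other members lie inside the band.

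Over the 9 analysed members, the median log2 ratio was 0.07 at 0.5 nM, with 7 above 0, and 0.13 at 1.5 nM, with 8 above 0. The median over all genes was 0.00 in both comparisons, with 50.6% and 49.8% of genes above 0. At 1.5 nM against 0.5 nM the members had a median of 0.06, with 7 above 0, and none passed 1.5-fold, against 4.35% of all genes (2.38% higher and 1.97% lower). In that comparison FTL had 0.20 [0.18, 0.21], GPX4 0.17 [0.09, 0.24] and BACH1 -0.11 [-0.22, 0.00].

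Other transcripts with iron-responsive elements mostly stood near their untreated level. Of 10 such genes listed from textbook knowledge, 7 were analysed, with a median log2 ratio of 0.08 at 0.5 nM and 0.17 at 1.5 nM. FTH1 alone was at least 1.5-fold higher, at 1.5 nM, and none was lower. Among the 112 analysed genes that held a match to the pattern above, the median was 0.03 at each dose. At 1.5 nM, 6 of them were at least 1.5-fold higher and 1 was lower, beside 4.77% and 2.23% of all genes. At 0.5 nM none passed in either direction, beside 2.46% of all genes higher and 0.901% lower.

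The wider uptake list had 13 genes, of which 8 were analysed. Their median log2 ratio was 0.01 at 0.5 nM and 0.05 at 1.5 nM. None was 1.5-fold different at 0.5 nM, beside 3.37% of all genes, and 1 was higher at 1.5 nM, beside 4.77%. That gene was MELTF, which encodes melanotransferrin, an iron-binding surface protein of the transferrin family, with 201, 136 and 257 counts and log2 ratios of -0.15 [-0.47, 0.17] and 0.72 [0.46, 1.00]. Of the 5 cytosolic iron chaperone and ferritinophagy genes, 1 was higher at 1.5 nM, beside 4.77% of all genes. The chaperone gene PCBP1, which delivers iron to ferritin, had log2 ratios of -0.13 and -0.09, and HERC2, the ligase gene that acts on NCOA4 protein, -0.01 and 0.07.

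A further list holds BACH proteins and their partners, NFE2L2 (the NRF2 gene), KEAP1, and targets of NRF2 and BACH1. Of its 16 analysed genes, 4 were at least 1.5-fold higher at 1.5 nM, beside 4.77% of all genes. All 16 had log2 ratios above 0, beside 49.8% of all genes, with a median of 0.24. The counting intervals of KEAP1, at 0.07 [-0.02, 0.16], and MAFF, at 0.17 [-0.71, 1.08], span 0. By TPM the thioredoxin reductase gene TXNRD1 stood slightly lower, at 199.9 in untreated cells and 198.7 at 1.5 nM. FTH1, FTL and BACH1 are 3 of the 16, and the list was chosen with earlier results of these data known. At 0.5 nM the median was 0.18, with 14 above 0, beside 50.6% of all genes, and 1 at least 1.5-fold higher, beside 2.46%. The 2 below 0 at 0.5 nM were KEAP1, at -0.24 [-0.33, -0.14], and FTL. The genes past 1.5-fold at 1.5 nM beside FTH1 and HMOX1 were SLC7A11, the cystine transporter gene, with 0.94 [0.80, 1.10], and the malic enzyme gene ME1 with 0.79 [0.42, 1.20].

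Haem genes other than HMOX1 lay on both sides of 0. Among 8 analysed haem synthesis genes the median was 0.00 at 0.5 nM and -0.03 at 1.5 nM. None passed 1.5-fold, beside 3.37% and 7% of all genes. ALAS1, the rate-limiting enzyme gene of haem synthesis outside erythroid cells, had 0.21 [0.09, 0.32] and 0.37 [0.26, 0.48]. CPOX, a later enzyme gene of the pathway, had 0.33 and 0.15. Among 8 analysed haem degradation and transport genes the median was 0.00 and 0.01. At 1.5 nM, HMOX1 was the 1 gene past 1.5-fold upwards and the biliverdin reductase gene BLVRA the 1 downwards, beside 4.77% and 2.23% of all genes. BLVRA had 28, 18 and 11 counts and a log2 ratio of -0.87 [-2.13, 0.08] at 1.5 nM. The haem transporter gene SLC48A1 had 0.31 [0.10, 0.53] and 0.46 [0.25, 0.67], and the haem exporter gene FLVCR1 had -0.11 and -0.28 [-0.43, -0.13]. BLVRA and FLVCR1 were named after their values were seen, as was SLC48A1.

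Genes of iron-sulfur cluster assembly showed no difference past 1.5-fold at either dose, beside 3.37% of all genes at 0.5 nM and 7% at 1.5 nM. The 21 analysed genes of mitochondrial iron import and cluster assembly had a median of -0.07 at 0.5 nM, with 16 below 0, and -0.04 at 1.5 nM, with 15 below 0, beside 49.4% and 50.2% of all genes. The sign at 0.5 nM turned on log2(TPM + 1), where the list median was 0.02 and that of all genes 0.06. The assembly factor gene ISCA2 had -0.09 and -0.36, and the co-chaperone gene HSCB, whose counts were not whole, had -0.11 and -0.29. The 10 cytosolic assembly genes had medians of -0.10 and -0.02 (0.04 on log2(TPM + 1) at 1.5 nM), with NUBP2, a scaffold gene, at -0.30 in both comparisons. CIAO2A, which acts in the maturation of iron regulatory protein 1, had -0.02 and -0.08, and GLRX3 had 0.00 and -0.14.

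Around GPX4, 14 ferroptosis genes were analysed, with medians of -0.09 at 0.5 nM and -0.02 at 1.5 nM. SLC7A11 was the 1 gene past 1.5-fold, upwards at 1.5 nM, beside 4.77% of all genes. The 21 analysed genes of selenoproteins and selenocysteine incorporation had medians of -0.01 and -0.03. None passed 1.5-fold, beside 3.37% of all genes at 0.5 nM and 7% at 1.5 nM. SECISBP2, which encodes the protein that recruits the selenocysteine machinery to selenoprotein transcripts, had 0.03 and -0.37. SEPHS1 had -0.24 and -0.33, and the selenoprotein gene SELENOS had 0.15 and 0.27.

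**Figure D5:**
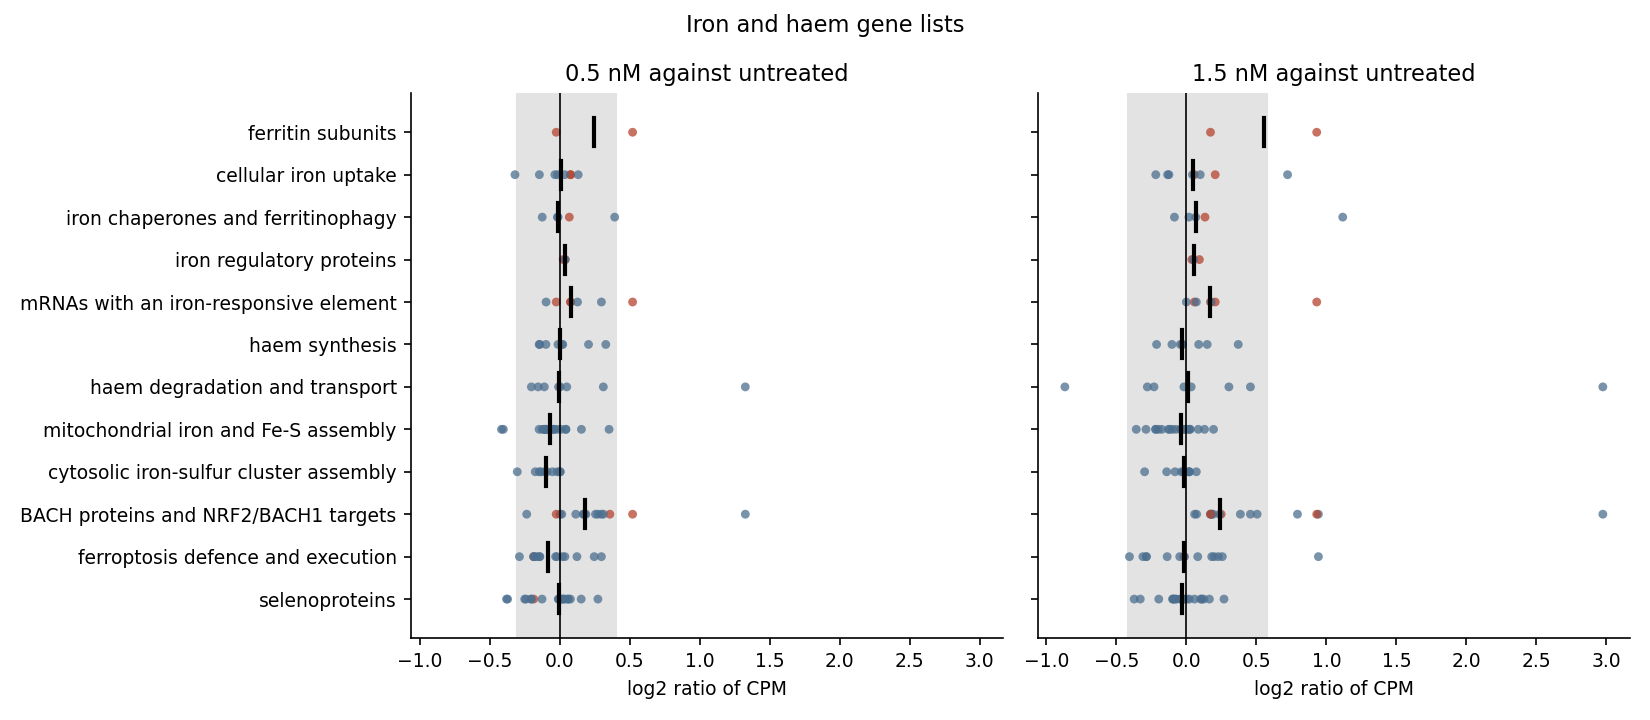
Log2 ratio of CPM (x axis) of each analysed gene in 12 lists at 0.5 nM (left) and 1.5 nM (right) against untreated cells, with members in red, other genes in blue, list medians as black bars and the central 90% of all genes in grey. The highest list medians at 1.5 nM are those of the 2 ferritin genes, 0.55, and of the list around BACH1, 0.24.

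The genes whose pair of log2 ratios to untreated cells lay nearest to that of FTH1 were PECAM1 (0.48 and 0.78), GSN (0.46 and 0.70), TXNIP (0.60 and 0.70), EPB41L3 (0.37 and 0.69) and GPR183 (0.44 and 0.59). They were sought among 3614 genes with whole counts and at least 50 CPM on average, by Euclidean distance, which ran from 0.15 to 0.35. None of them came closer to FTH1 than a distance of 0.15. For TFRC the nearest were ENPP2, MACF1, SLK, TASL and AGO4, at distances of 0.0030 to 0.0081. The likeness rests on 2 ratios from 3 libraries that share the untreated one.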

How the data were processed

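In the table that the authors deposited, each gene has an estimated count and a TPM value in each of the 3 libraries. The deposited estimated counts are not normalised, and 12.7%, 12.3% and 12.0% of them were not whole for untreated cells, 0.5 nM and 1.5 nM. The authors scaled TPM values to gene length, and each library sums to 1000000. The submitters' processing notes name HISAT2, edgeR, DESeq2, StringTie 1.3.1 and fastp 0.18.0, without a role for any of them. Build and annotation: not given in the sources used here.

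Estimated counts were rounded, genes averaging at least 1 CPM were kept, and TMM scaling was done in R 4.3.3 with edgeR 4.0.16 (factors 0.987, 1.01 and 1.01 in order of dose). Log2 CPM used a prior count of 2. Each group had 1 library, so the planned comparison was by size alone: differences of 1.5-fold were counted and no test was run. Intervals and the floor of 3 counts cover counting error only, since PCR copies are not independent molecules. Steps were tested on simulated data.

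Members, the 13 gene lists and the 5 marker lists were chosen with earlier results of these data known. Named genes are the members, HMOX1, the 5 nearest patterns, and list genes averaging at least 5 CPM that passed 1.5-fold (failing that, the 3 with the largest ratios at 1.5 nM). List genes were matched by the table's symbols or by Ensembl identifier. Alternatives were DESeq2 1.42.0 size factors, total counts, other filters, a prior count of 0.5, log2(TPM + 1) and removal of the trend on transcript GC content (GENCODE release 29, found for 99.4% of genes). Some genes that the naming rule takes are not reported here.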

Additional observations from a re-analysis of the deposited data

How the results depend on the processing

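FTH1 kept its direction in all 7 alternative settings, with log2 ratios of 0.51 to 0.55 at 0.5 nM, 0.92 to 0.96 at 1.5 nM and 0.39 to 0.41 between doses, and it was the member past 1.5-fold at 1.5 nM in each. Without a filter on low counts 1 member was counted at 0.5 nM and 1 at 1.5 nM against 0.5 nM, where the main count was 0; this is SLC40A1 with its single count. Counts over all genes moved with the filter. Without one they were 1516 higher and 715 lower at 0.5 nM, 1721 and 1283 at 1.5 nM, and 1386 and 1845 between doses. With a mean of 5 or more CPM, which keeps fewer genes, they were 80 and 21, 228 and 94, and 64 and 62. The part of low-count genes in these counts was not tested. On log2(TPM + 1), 43 were lower at 0.5 nM, 135 lower at 1.5 nM and 141 higher between doses, against 102, 252 and 269; the cause was not tested. GPX4 at 1.5 nM ran from -0.07 to 0.01, and TFRC between doses from -0.06 to 0.04. No replicate could be left out, since each group has 1 library. No paired analysis was possible because the groups share no more than 1 replicate number. SLC40A1, with 0, 1 and 0 counts in order of dose, has no ratio. SLC11A2, ACO1 and BACH1 have the widest counting intervals of the analysed members. Of 36 list medians, 31 stayed inside the binomial interval of the median in every alternative that gave a value. For the shorter lists, such as the 2 ferritin genes, that interval runs from the lowest gene to the highest. It is a weak check where those genes lie far apart.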

Other observations

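The iron list genes PCBP3 and CDC42BPA, both with low counts, stood apart and were named after their values were seen. PCBP3, a member of the iron chaperone family, had 34 counts in untreated cells, 34 at 0.5 nM and 59 at 1.5 nM, a log2 ratio of 1.12 at 1.5 nM. CDC42BPA, a kinase gene whose transcript is reported to carry an iron-responsive element, had 16, 11 and 0 counts, below the expression minimum. The epithelial genes DSP and DSG2 were likewise at 0 in the 1.5 nM library alone. Other epithelial genes were not, with 33, 32 and 44 counts for KRT8, 56, 24 and 31 for KRT18, and 28, 23 and 25 for CLDN7. The part of other cells' RNA in the CDC42BPA counts was not tested.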
